A study of Mus musculus with 4 samples.

Results

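The genes described here are 8 that set how the heart answers nerve and hormone signals: 7 receptors, of the adrenergic, muscarinic, angiotensin and endothelin families, and angiotensin-converting enzyme. They were picked by symbol (Adrb1, Adra1a, Adra1b, Chrm2, Agtr1a, Ednra, Ednrb and Ace), and each symbol stood on a single row among the 55382 Ensembl genes of the deposited tables. Ribosome profiling, the sequencing of mRNA fragments shielded by ribosomes, was done on heart tissue of mice at day 15 after birth. The control group, WT in the genotype label and NAT10-FF in the design, had 2 libraries. The knockout group, KO in the label and NAT10-CKO in the design, also had 2, and NAT10 is an enzyme that acetylates cytidine in RNA. The age, the tissue, the batch label and cycloheximide at 100 µg/mL were shared by both groups. The cells in which the conditional knockout acts, the exons it removes and whether a library is 1 animal or a pool are not stated in the labels, so the spread behind each p-value may be no more than technical.

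Adrenergic receptors carry the sympathetic signal. The beta-1 receptor raises cyclic AMP through Gs and drives rate and force, while alpha-1 receptors act through Gq and phospholipase C. The muscarinic M2 receptor carries the vagal signal through Gi and slows the heart. The enzyme ACE, best known on endothelium, makes angiotensin II, whose type 1 receptor couples to Gq, as do the endothelin receptors A and B, the former prominent on muscle cells and the latter on endothelium and glia.

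Each library gives a footprint level in FPKM (fragments per kilobase of gene, scaled to the mapped total) and a translation efficiency (TE), the footprint level over an RNA level. Dividing the first by the second gives back that RNA level, called the implied RNA level, also in FPKM. A gene was called when its adjusted p in limma was under 0.05, over 15031 genes for footprints and 12529 for TE and RNA. The median gene lay 0.36 (log2) higher in KO for footprints, 0.22 higher for RNA and 0.15 higher for TE, and changes relative to that median are given where they matter. The targeted gene Nat10 had 77.3 and 73.9 FPKM of footprints in WT against 40.01 and 52.1 in KO (adjusted p = 0.295), so both KO libraries were lower without a call. The depth is unknown, as FPKM keeps no read total, and from 16425 to 16900 genes were above 0 in a library. Mitochondrial tRNA genes held 49.0% to 57.0% of summed FPKM. The labels name cardiomyocytes as the cell type and the protocols describe heart tissue. All 12 cardiomyocyte markers were above 0 in every library, and so were all 10 fibroblast and all 12 endothelial markers.

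Among the 8 genes, those called for RNA lay in opposite directions. The RNA of Adra1b fell 4.26-fold in KO and that of Ace rose 2.72-fold, so 1 member was called lower and 1 higher among 7 tested. Over all genes tested for RNA, 192 (1.53%) were called lower and 526 (4.2%) higher, and with median-ratio scaling 309 lower and 327 higher. Both member calls, and the RNA calls of related genes described further on, were lost when limma was run without its mean-variance trend (adjusted p = 0.0503 for Adra1b and 0.0684 for Ace). No member was called for footprints by limma, and over all genes 0.253% were called higher and 0.126% lower. An unadjusted p under 0.05 in footprints was reached by 4 of 8 members, 1 of them Adra1a, which passed the filter on low values through WT alone, and by 17.3% of all genes. For TE limma called 0 of 7 members and 0% of all genes, and an unadjusted p under 0.05 was reached by 2 members and 6.06% of all genes. For RNA an unadjusted p under 0.05 was reached by 4 of 7 members and 28.3% of all genes. In heart tissue, fewer cells of a type and less RNA per cell cannot be told apart.

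The promoters of both RNA calls are shown because they are the stretches from which those RNAs start. Start sites were listed for 6 of the 8 genes in RefSeq's table for GRCm38.p6, with no entry for Adra1a and Agtr1a. Each stretch runs from 250 bases before a start to 50 after it, 5′ to 3′ on the gene's own strand, and capitals mark matches on either strand. The motif GGGCGG is the GC box, which reads CCGCCC where it lies on the opposite strand. The motif TATAAA is the TATA box, which reads TTTATA where it lies on the opposite strand. The Ace start lies at the 5′ end of the gene on the plus strand of chromosome 11, chr11:105967698-105967997. Both Adra1b starts lie on the minus strand of the same chromosome, the first near the 5′ end of the gene, chr11:43901188-43901487, and the second inside the gene's span, chr11:43836440-43836739.
Ace: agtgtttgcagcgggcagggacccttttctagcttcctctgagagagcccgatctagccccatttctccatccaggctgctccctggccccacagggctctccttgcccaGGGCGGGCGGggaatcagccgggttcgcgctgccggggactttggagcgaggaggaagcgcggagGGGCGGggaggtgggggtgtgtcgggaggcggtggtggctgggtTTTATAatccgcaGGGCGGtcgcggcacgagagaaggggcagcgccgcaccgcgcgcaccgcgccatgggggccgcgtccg
Adra1b, first start: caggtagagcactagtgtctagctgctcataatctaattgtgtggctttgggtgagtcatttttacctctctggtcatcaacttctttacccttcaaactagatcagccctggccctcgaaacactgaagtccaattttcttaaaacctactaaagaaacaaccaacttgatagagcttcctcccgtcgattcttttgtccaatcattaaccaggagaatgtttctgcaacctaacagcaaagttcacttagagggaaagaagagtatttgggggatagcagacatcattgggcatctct
Adra1b, second start: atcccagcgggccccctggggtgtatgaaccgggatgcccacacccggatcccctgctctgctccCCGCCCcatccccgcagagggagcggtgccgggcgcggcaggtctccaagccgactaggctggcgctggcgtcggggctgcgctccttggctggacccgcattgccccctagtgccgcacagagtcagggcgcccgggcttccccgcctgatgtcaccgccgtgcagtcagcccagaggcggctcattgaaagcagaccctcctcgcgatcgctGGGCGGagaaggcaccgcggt

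The Ace stretch held 4 GC boxes, the 2 farthest from the start sharing letters, and a TATAAA match on the other strand that begins 31 bases before the start (position -31). The first Adra1b stretch held no GC box and the second held 2, 1 on each strand. A GC box stood in 35.7% of 32851 stretches of 300 bases in that table and TATAAA in 13.6%. The G and C content was 69.7% for Ace, 42.3% and 71.3% for Adra1b, and 52.7% at the median. The cyclic AMP element TGACGTCA (1.79% of stretches) and the E-box CACGTG (7.15%) matched in neither gene. A further Ace start, chr11:105974939-105975238, held none of these motifs. These are matches of letters only.

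Adra1b codes for the alpha-1B adrenergic receptor (ENSMUSG00000050541, protein-coding, chromosome 11 from 43774605 to 43901250 in GRCm38.p6). Its implied RNA read 29.7 and 31.6 FPKM in WT against 6.14 and 8.43 in KO, or 30.7 ± 1.31 against 7.28 ± 1.62 (SD, n = 2). Both KO values lay far under the WT ones. limma put the difference at -2.09 in log2 (SE 0.24, adjusted p = 0.0192), or -2.31 relative to the median gene. Its footprint level was 81.0 and 51.4 FPKM in WT against 21.3 and 22.6 in KO, with a log2 difference of -1.51 (SE 0.37, adjusted p = 0.174), so the footprints followed the RNA downwards without a call. Its TE was 2.72 and 1.63 in WT against 3.48 and 2.68 in KO (log2 difference 0.54, adjusted p = 0.915), and there the groups overlapped.

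Adra1a codes for the alpha-1A receptor (ENSMUSG00000045875, chromosome 14 from 66635251 to 66771240) and was the weakest member. It read 1.90 and 4.98 FPKM of footprints in WT, was listed at 0 in KO replicate 1 and read 0.763 in KO replicate 2. It entered the footprint comparison only through its WT values, and its log2 difference of -1.65 (SE 0.64) had an adjusted p of 0.279. RNA read 2.62 and 1.71 FPKM in WT and 0.0434 in KO replicate 2, with none given for KO replicate 1, so no RNA or TE comparison was made. A TE of 17.6 in KO replicate 2 rests on that RNA value of 0.0434 FPKM.

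Adrb1 codes for the beta-1 receptor, the main cardiac adrenergic receptor (ENSMUSG00000035283, chromosome 19 from 56722117 to 56725150). Its footprints were 7.23 and 7.46 FPKM in WT against 4.04 and 5.68 in KO (-0.52 in log2 with an SE of 0.50 and an adjusted p of 0.609). RNA was 9.83 and 10.8 FPKM in WT against 9.33 and 8.36 in KO (-0.22 in log2 with an SE of 0.22 and an adjusted p of 0.539). KO lay below WT in both measures by less than the tests resolve. Its TE of 0.736 and 0.691 in WT against 0.432 and 0.680 in KO was the lowest of the 7 members with a TE in every library. In WT, the RNA of Adrb1 stood at the 59.1 percentile of tested genes, its footprint level at the 32.5 percentile and its TE at the 7.14 percentile.

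**Figure D1:**
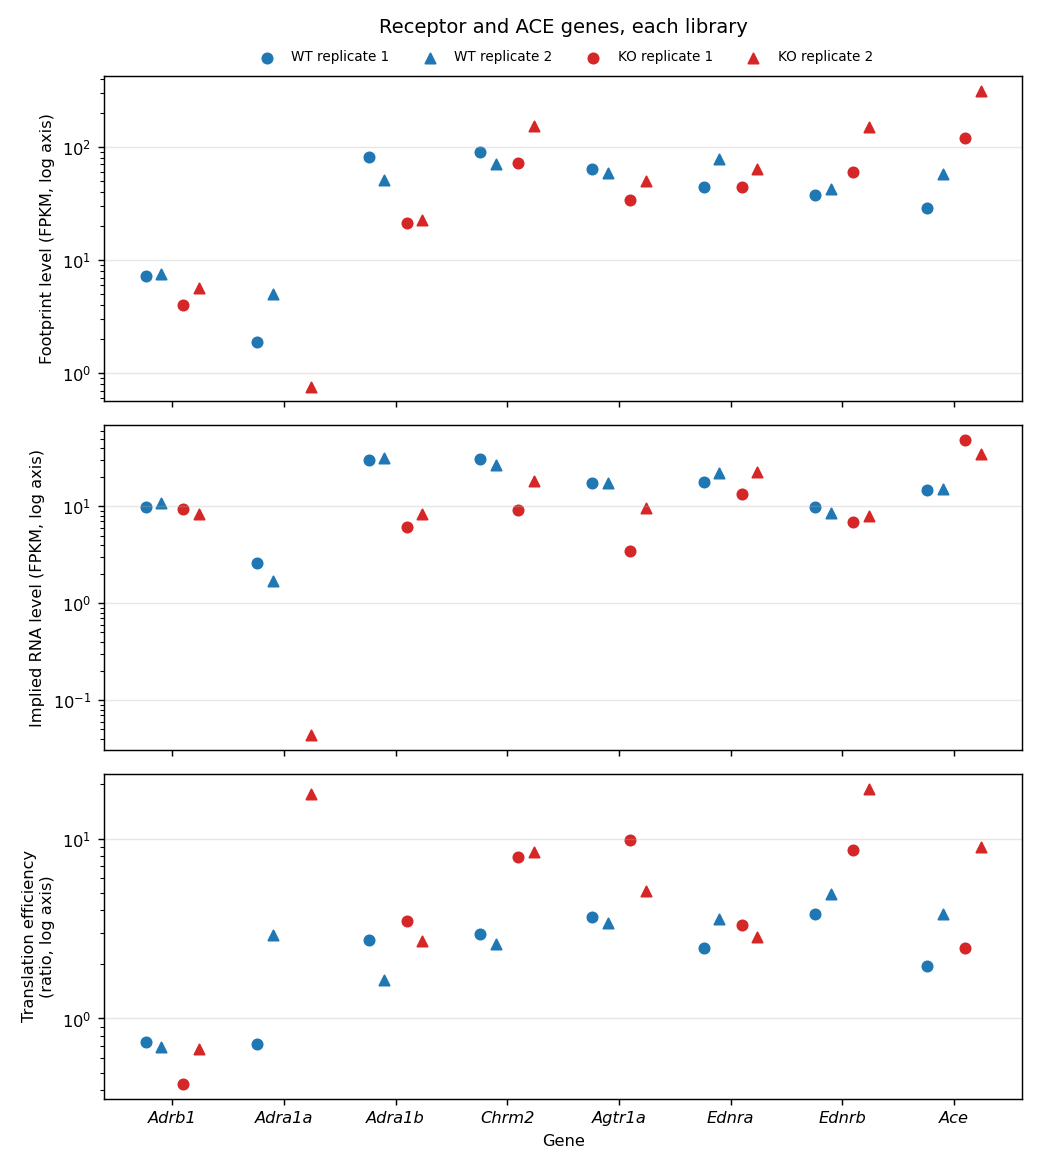
Footprint level (top, FPKM), implied RNA level (middle, FPKM) and translation efficiency (bottom, a ratio) of the 8 genes on log axes, with 1 point per library, WT in blue and KO in red, replicate 1 as circles and replicate 2 as triangles. Adra1a of KO replicate 1, listed at 0, is not drawn; Adra1b RNA lies at 29.7 and 31.6 in WT against 6.14 and 8.43 in KO, and Ace RNA at 14.8 and 15.2 against 48.4 and 34.5.

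Within each library, Adra1b can be set against Adrb1 in a ratio that library scaling does not touch; this ratio and the endothelin ratio below were chosen after the values were seen. For RNA, Adra1b over Adrb1 was 3.03 and 2.92 in WT against 0.657 and 1.01 in KO. Alpha-1B RNA thus exceeded beta-1 RNA in both WT libraries and was level with it or below it in KO. For footprints the ratio was 11.2 and 6.88 in WT against 5.28 and 3.98 in KO, so footprints of Adra1b stayed above those of Adrb1 in every library. No p is given for these ratios, since exact permutation of 2 WT and 2 KO libraries allows none under 0.333.

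Chrm2 codes for the muscarinic M2 receptor (ENSMUSG00000045613, chromosome 6 from 36387991 to 36528638) and had the highest WT footprint level of the set. RNA was 30.5 and 27.0 FPKM in WT against 9.15 and 18.3 in KO, a log2 difference of -1.15 (SE 0.34) that was not called (adjusted p = 0.0929). Footprints were 89.5 and 70.1 FPKM in WT against 72.0 and 154 in KO (0.41 in log2 with an SE of 0.42 and an adjusted p of 0.635). RNA was lower in both KO libraries while footprint values overlapped, and relative to the median gene the footprint difference was 0.05. Without KO replicate 2 the RNA difference was -1.65 and the footprint difference was -0.14. Without KO replicate 1 they were -0.65 and 0.95, and each of these fits leaves 1 KO library. TE was 2.93 and 2.59 in WT against 7.87 and 8.41 in KO, a log2 difference of 1.56 (SE 0.43, unadjusted p = 0.00985 in limma, adjusted p = 0.777). That is 2.95-fold with little spread inside each group, and it was not called.

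Atrial tissue is rich in M2 receptors, and markers of the atria differed between libraries of the same group. Summed over the 6 atrial markers other than Nppa, RNA was 13.7 and 168 FPKM in WT against 126 and 30.0 in KO. Myl7, the atrial myosin light chain, read 0.262 and 94.2 FPKM of RNA in WT against 44.1 and 0.251 in KO. Myl7, Myl4 and Sln had their higher RNA values in WT replicate 2 and KO replicate 1. Inside each group, Dkk3 of the same list kept that order. Its RNA read 3.87 FPKM for WT replicate 1 and 12.0 for WT replicate 2. KO replicate 1 read 24.5 and KO replicate 2 read 16.6, so both lay above WT replicate 2. Nr2f2 kept the order among WT libraries (7.02, then 10.1 FPKM) and broke it among KO libraries (9.09, then 10.4). None of the 7 atrial markers was at 0 in all libraries, and Bmp10 was at 0 in KO replicate 2 for footprints and had an RNA value in KO replicate 1 only. Their part in the Chrm2 values was not tested. Nppa, the natriuretic peptide gene that ventricles also make, rose in both measures.

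Agtr1a codes for the angiotensin II type 1a receptor (ENSMUSG00000049115, chromosome 13 from 30336356 to 30382867). Its RNA was 17.4 and 17.4 FPKM in WT against 3.47 and 9.72 in KO, a log2 difference of -1.58 (SE 0.46) with an adjusted p of 0.0877. The WT libraries were nearly identical, and the KO libraries were both lower but far apart. Footprints were 63.4 and 59.2 FPKM in WT against 34.1 and 49.6 in KO (-0.56 in log2 with an SE of 0.33 and an adjusted p of 0.412), and TE was 3.65 and 3.40 in WT against 9.82 and 5.10 in KO (1.01 in log2 with an SE of 0.50 and an adjusted p of 0.828). Without WT replicate 1, WT replicate 2 or KO replicate 2 the RNA difference was called (adjusted p = 0.0135, 0.00945 and 0.00273), at -2.33 without KO replicate 2, and without KO replicate 1 it was -0.84 and not called (adjusted p = 0.0625).

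Ace codes for angiotensin-converting enzyme (ENSMUSG00000020681, chromosome 11 from 105967948 to 105989964). Its RNA was 14.8 and 15.2 FPKM in WT against 48.4 and 34.5 in KO, or 15.0 ± 0.27 against 41.5 ± 9.83 (SD, n = 2). limma put the difference at 1.44 in log2 (SE 0.24, adjusted p = 0.0307), or 1.22 relative to the median gene. Footprints were 29.0 and 57.6 FPKM in WT against 119 and 309 in KO, a log2 difference of 2.2 (SE 0.55) that was not called (adjusted p = 0.18). Leaving out KO replicate 2 gave 1.51, and leaving out KO replicate 1 gave 2.89. Both KO libraries lay above both WT libraries in RNA and in footprints, with the KO libraries apart from each other by more than the WT ones. TE was 1.96 and 3.79 in WT against 2.45 and 8.97 in KO, where the groups overlapped (0.78 in log2 with an SE of 0.74 and an adjusted p of 0.908). With KO replicate 2 left out it was -0.15, with KO replicate 1 left out 1.72.

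Endothelial markers were read beside Ace. Their summed RNA was 729 and 796 FPKM in WT against 922 and 877 in KO, or 1.18 times the WT mean, and their summed footprints were 3615 and 3002 against 4410 and 6045, or 1.58 times. No endothelial marker was called for RNA or footprints, with 2 and 5 of the 12 at an unadjusted p under 0.05 (28.3% and 17.3% of all genes). Vwf, a secreted endothelial clotting protein, had RNA of 20.3 and 21.7 FPKM in WT against 94.6 and 43.2 in KO (adjusted p = 0.0544), while Cdh5, the endothelial cadherin, had 100.0 and 106 in WT against 67.8 and 115 in KO (adjusted p = 0.632). Macrophages can make ACE too, and their 10 markers summed to 129 and 123 FPKM of RNA in WT against 297 and 236 in KO, 2.12 times the WT mean. In RNA 2 of the 10 were called higher (4.2% of all genes) and 6 had an unadjusted p under 0.05 in limma. There 9 lay above WT in both KO libraries, against 44.2% of all genes. Their summed footprints were 1.81 times the WT mean, with none called and 1 at an unadjusted p under 0.05. The part of these cells in the Ace difference was not tested.

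Ednra codes for the endothelin A receptor (ENSMUSG00000031616, chromosome 8 from 77663029 to 77724452). Its footprints were 44.1 and 78.6 FPKM in WT against 44.4 and 63.9 in KO (-0.14 in log2 with an SE of 0.40 and an adjusted p of 0.879). RNA was 18.0 and 22.1 FPKM in WT against 13.4 and 22.6 in KO (-0.20 in log2 with an SE of 0.30 and an adjusted p of 0.689), and TE was 2.45 and 3.55 in WT against 3.32 and 2.83 in KO (0.05 in log2 with an SE of 0.50 and an adjusted p of 0.998). It was the member whose groups overlapped in all 3 measures, and each difference changed sign when some library was left out.

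Ednrb codes for the endothelin B receptor (ENSMUSG00000022122, chromosome 14 from 103814615 to 103844508). Footprints were 37.3 and 42.2 FPKM in WT against 60.3 and 151 in KO, a log2 difference of 1.25 (SE 0.47, unadjusted p = 0.0397 in limma, adjusted p = 0.271). KO replicate 2 was the high one, and the difference was 0.59 with that library left out and 1.90 without KO replicate 1. RNA was 9.77 and 8.54 FPKM in WT against 6.95 and 7.98 in KO (-0.29 in log2 with an SE of 0.23 and an adjusted p of 0.434). Footprints were thus higher and RNA slightly lower in both KO libraries, and neither was called. TE was 3.82 and 4.94 in WT against 8.68 and 18.9 in KO, a log2 difference of 1.56 (SE 0.53, unadjusted p = 0.0223, adjusted p = 0.806).

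Set against each other inside each library, Ednrb over Ednra was 0.845 and 0.537 in WT footprints and 1.36 and 2.36 in KO footprints. In RNA the same ratio was 0.543 and 0.386 in WT against 0.520 and 0.353 in KO. The A receptor thus had more footprints than the B receptor in both WT libraries and fewer in both KO libraries, while its RNA was the higher of the pair in all 4. Ednrb is also a gene of glia, and the 7 glial markers summed to 19.5 and 24.3 FPKM of footprints in WT against 68.9 and 54.8 in KO, with none called and S100b at 0 in WT replicate 2. Their part in the Ednrb footprints was not tested.

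**Figure D2:**
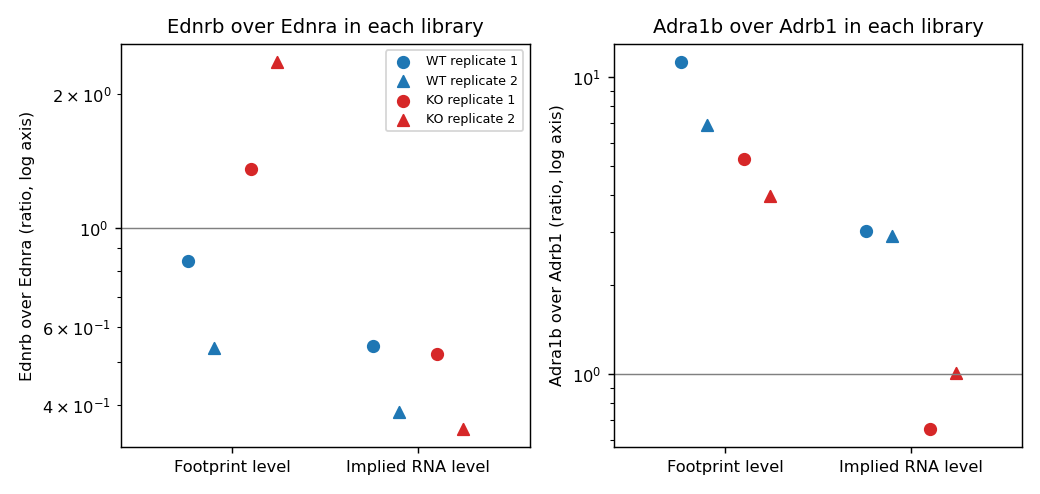
Ratio of Ednrb over Ednra (left) and of Adra1b over Adrb1 (right) inside each library, for footprint and implied RNA levels, on log axes with a grey line at a ratio of 1; WT is blue, KO red, circles are replicate 1 and triangles replicate 2. The endothelin ratio in footprints is 0.845 and 0.537 in WT against 1.36 and 2.36 in KO, and the adrenergic ratio in RNA is 3.03 and 2.92 in WT against 0.657 and 1.01 in KO.

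Across the set, footprints in KO were under all WT values for 4 members (Adrb1, Adra1a, Adra1b, Agtr1a) and above for 2 (Ednrb, Ace), with Chrm2 and Ednra overlapping. Adra1a could only lie below, having entered through its WT values, and without it 3 of 7 lay below, a count made after seeing the data. Over all tested genes 12.1% lay below in this way and 39.5% above. In RNA 5 of 7 lay below (Adrb1, Adra1b, Chrm2, Agtr1a, Ednrb) and 1 above (Ace), against 18.6% below and 44.2% above over all genes. In TE 3 of 7 lay above (Chrm2, Agtr1a, Ednrb) and 1 below (Adrb1), against 24% above and 12% below. The median log2 difference of the members was -0.33 for footprints, or -0.14 without Adra1a (0.36 over all genes), -0.29 for RNA (0.22 over all genes) and 0.78 for TE (0.15 over all genes). Since TE divides one of these measures by the other, it is not independent of them.

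**Figure D3:**
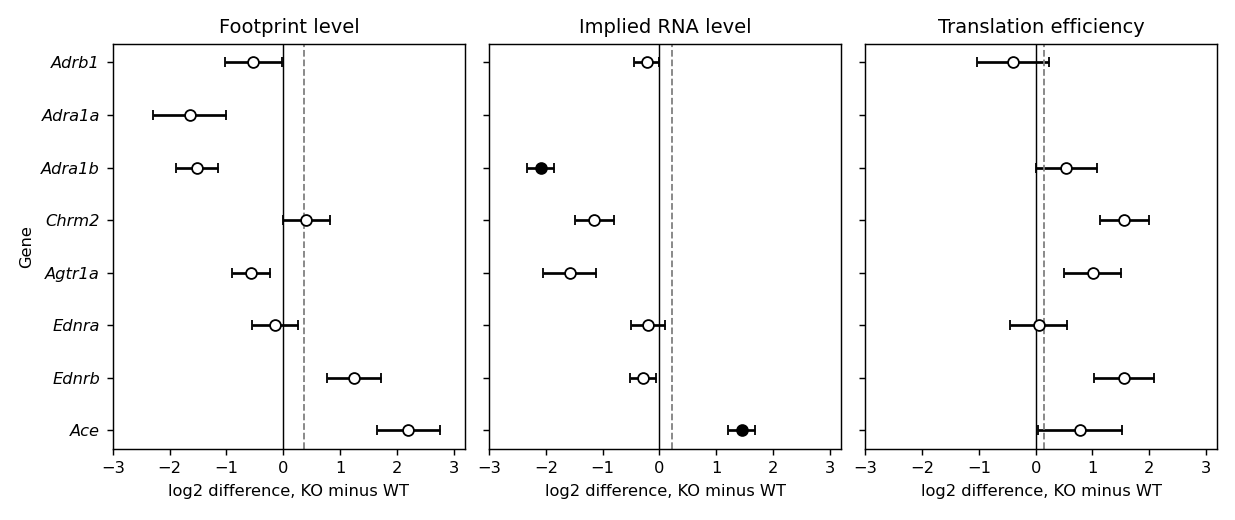
Log2 difference, KO minus WT, of the 8 genes in footprint level, implied RNA level and translation efficiency, with bars of 1 SE from limma; filled points passed an adjusted p of 0.05, the solid line marks 0 and the dashed line the median of all tested genes. Adra1b (-2.09) and Ace (1.44) are filled in the RNA panel, no point is filled in the others, and Adra1a has a footprint value only.

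In the WT hearts the order of mean footprint levels was Chrm2 (79.8 ± 13.7 FPKM, SD, n = 2), Adra1b (66.2 ± 20.9), Ednra (61.4 ± 24.4), Agtr1a (61.3 ± 2.97), Ace (43.3 ± 20.2), Ednrb (39.7 ± 3.45), Adrb1 (7.34 ± 0.17) and Adra1a (3.44 ± 2.18). Neighbours among the first 6 did not differ beyond their spread, while Ednrb, Adrb1 and Adra1a were apart by more than it. The first 6 stood at the 65.1 to 78.5 percentile of tested genes, and Adrb1 and Adra1a stood at 32.5 and 21.0. In the KO hearts Ace (214 ± 135), Chrm2 (113 ± 57.8) and Ednrb (106 ± 64.1) came first, with spreads that overlap, and Adra1b stood at 22.0 ± 0.92.

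Profiles of the members were set against 164 other genes of the lists by Euclidean distance over 8 values, the log2 footprint and RNA levels of the 4 libraries centred per gene. Nearest to Adra1b was Mme, the peptidase neprilysin (distance 0.65, against a median of 3.28 to all candidates). Nearest to Chrm2 was Itpr1, the type 1 inositol trisphosphate receptor and a calcium release channel (0.47, median 1.89). Nearest to Agtr1a was Abcc9, a potassium channel subunit of muscle and mural cells (0.54, median 2.50), with cardiomyocyte marker Ryr2 nearly as close (0.57). For Adrb1 it was Actn2, the Z-disc actinin of cardiomyocytes (0.22, median 1.58), for Ednrb the fibroblast receptor Pdgfra (0.50, median 1.69) and for Ednra the endothelial receptor Tie1 (0.53, median 1.58). For Ace it was the adenylyl cyclase Adcy7 (0.97, median 2.58), with the endothelial gene Vwf nearly as close (0.99). Adra1a could not be placed, lacking an RNA value in KO replicate 1.

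Among related receptors, 7 of 15 were tested for footprints and 6 for RNA and TE, and limma called none in any measure. Over all genes, 0.253% were called higher and 0.126% lower in footprints, 4.2% and 1.53% in RNA, and 0% in TE. An unadjusted p under 0.05 in limma was reached by 0 in footprints, 0 in RNA and 1 in TE. The shares of all genes that reached it were 17.3%, 28.3% and 6.06%. Agtrap, which binds the type 1 angiotensin receptor and dampens its surface level, read 63.7 and 147 FPKM in WT against 74.0 and 41.2 in KO (adjusted p = 0.438). Agtr2 read 3.72 and 1.68 FPKM in WT against 1.68 and 1.25 in KO, and Agtr1b, Chrm1 and Chrm5 were listed at 0 in all 4 libraries.

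Genes that make or break down the ligands had called members in RNA on both sides, 1 higher and 2 lower of 12 tested. Over all genes 4.2% were called higher in RNA and 1.53% lower. None of the list was called in footprints by limma, where 5 of 13 had an unadjusted p under 0.05 against 17.3% of all genes. Mme, which degrades angiotensin, endothelin and natriuretic peptides, fell 5.75-fold in RNA, from 2.46 and 1.75 FPKM in WT to 0.292 and 0.445 in KO (adjusted p = 0.0362). Agt, the precursor of angiotensin, fell 3.49-fold, from 2.08 and 2.15 FPKM to 0.546 and 0.673 (adjusted p = 0.0446), while its footprints overlapped at 29.8 and 43.7 in WT against 22.5 and 33.3 in KO.

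Both of these calls were lost when a library was left out. With WT replicate 1 left out, adjusted p was 0.0709 for Mme and 0.111 for Agt. Without WT replicate 2 it was 0.0852 for Agt, and without KO replicate 1 it was 0.0551 for Agt. Edn1, the endothelin ligand, read 9.81 and 5.61 FPKM of footprints in WT against 30.6 and 71.0 in KO (log2 difference 2.50, adjusted p = 0.158), and its RNA was 2.11 and 4.36 against 15.8 and 7.77 (adjusted p = 0.0646). Ece2, an endothelin-converting enzyme, read 2.89 and 0.375 FPKM of footprints in WT against 8.01 and 6.46 in KO (adjusted p = 0.264). Renin (Ren1) was listed at 0 in all 4 libraries.

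Downstream of the receptors, none of the 18 tested G protein subunits was called in any measure by limma, with 5 in footprints and 6 in RNA at an unadjusted p under 0.05, which 17.3% and 28.3% of all genes reached. Their median log2 difference was 0.54 in footprints and 0.47 in RNA, against 0.36 and 0.22 over all genes. Gnao1, an alpha subunit of the Gi/o class, read 29.3 and 44.0 FPKM of footprints in WT against 91.4 and 143 in KO (adjusted p = 0.159). Gnai3, an inhibitory alpha subunit through which M2 receptors can act, read 41.7 and 30.9 in WT against 69.8 and 113 in KO (adjusted p = 0.208).

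In the cyclic AMP arm, which serves beta receptors, 1 of 24 tested genes was called in RNA and none of 25 in footprints, where 5 had an unadjusted p under 0.05, near the 17.3% of all genes. In RNA 4.2% of all genes were called higher. Adcy7, an adenylyl cyclase, rose 2.88-fold in RNA, from 3.97 and 3.57 FPKM in WT to 11.2 and 10.5 in KO (adjusted p = 0.0287), and it kept that call without any single library. Other adenylyl cyclases went either way in RNA without a call. Adcy5, Adcy6 and Adcy9 were lower in KO (-1.05, -0.56 and -1.96 in log2), and Adcy3 and Adcy4 were higher (0.73 and 0.27). The median of the arm was -0.11 in RNA, with 19 of 24 genes below the median gene, and 0.28 in footprints. For RNA, 11 of 24 had an unadjusted p under 0.05 in limma, against 28.3% of all genes. There 11 of 24 genes fell under all WT values in KO and 6 rose over them, against 18.6% and 44.2% of all genes. Prkar2b, a regulatory subunit of protein kinase A, read 4.56 and 6.89 FPKM of footprints in WT against 16.5 and 15.9 in KO (adjusted p = 0.247). In the phospholipase C arm, which serves alpha-1, angiotensin and endothelin receptors, 1 of 12 genes was called in RNA and none of 13 in footprints (1 at an unadjusted p under 0.05). Prkcd, a protein kinase C, rose 2.16-fold in RNA, from 7.34 and 7.38 FPKM to 17.8 and 14.2 (adjusted p = 0.0463). It lost the call without WT replicate 1, WT replicate 2 or KO replicate 1 (adjusted p = 0.143, 0.101 and 0.0585) and with median-ratio scaling (0.062). Itpr2, a calcium release channel, read 15.9 and 14.3 FPKM of footprints in WT against 22.2 and 36.5 in KO (adjusted p = 0.348).

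Genes that switch receptors off had 1 call in each direction among 15 tested in RNA, where 4.2% of all genes were called higher and 1.53% lower. In footprints none of 16 was called by limma, and 3 had an unadjusted p under 0.05, near the 17.3% of all genes. Rgs2, which shortens Gq signals, fell 3.60-fold in RNA, from 36.4 and 31.3 FPKM in WT to 8.70 and 10.1 in KO (adjusted p = 0.0192), and kept the call without any single library. Rgs19, a regulator of Gi and Gq signals, rose 2.78-fold, from 3.34 and 2.98 FPKM to 11.4 and 6.75 (adjusted p = 0.0493), and lost the call without KO replicate 1 (adjusted p = 0.0732) or with median-ratio scaling (0.0624). Grk5, a kinase that desensitises beta receptors, had RNA of 6.84 and 6.81 FPKM in WT against 13.9 and 12.8 in KO (adjusted p = 0.0536).

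The current that M2 receptors open in the atria and the pacemaker runs through the channel subunits of Kcnj3 and Kcnj5. Kcnj3 RNA fell, from 12.3 and 8.48 FPKM in WT to 0.0358 and 0.615 in KO, with a log2 difference of -6.10 (limma adjusted p = 0.0433). That size rests on very low KO values: leaving out KO replicate 2 gave -8.16 and leaving out KO replicate 1 gave -4.05. Its footprints were 70.2 and 28.0 FPKM in WT against 12.7 and 3.49 in KO (log2 difference -2.53, adjusted p = 0.208). Kcnj5 RNA was 27.3 and 23.1 FPKM in WT against 14.9 and 21.6 in KO (adjusted p = 0.256), and its footprints overlapped. The part of atrial tissue, whose marker sums stand beside Chrm2, was not tested.

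**Figure D4:**
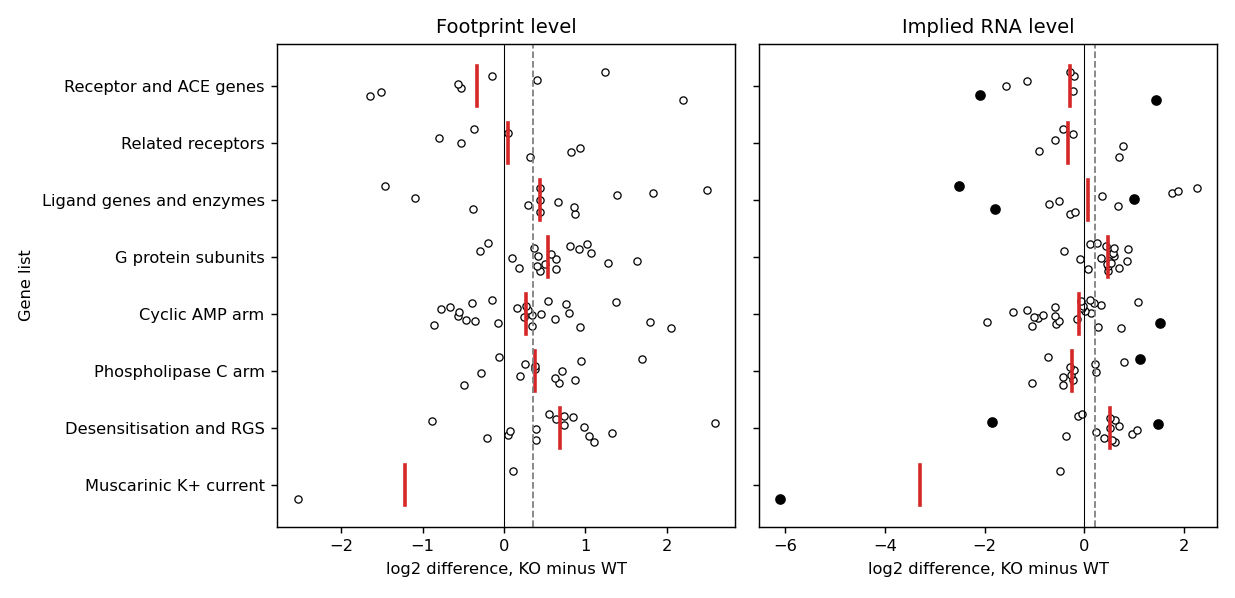
Log2 difference, KO minus WT, in footprint level (left) and implied RNA level (right) for the 8 genes and 7 lists of related genes, with 1 point per tested gene, filled where the adjusted p passed 0.05, a red bar at the list's median, a solid line at 0 and a dashed line at the median of all tested genes. The filled points in RNA are Adra1b and Ace, then, among the genes named here, Mme, Agt, Adcy7, Prkcd, Rgs2 and Rgs19, and Kcnj3 at -6.10; no point is filled in footprints.

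Marker lists of the cells that carry these receptors also differed between groups. Cardiomyocyte markers summed to 282800 and 328200 FPKM of footprints in WT against 189400 and 199200 in KO (0.636 times the WT mean). Actc1 made up 132100 and 171570 of that sum in WT and 86846 and 92596 in KO. In footprints 11 of the 12 lay below WT in both KO libraries, and over all genes 12.1% lay below and 39.5% above. In RNA the cardiomyocyte sum was 0.735 times the WT mean, with 9 of 12 below (18.6% of all genes, and 44.2% above). No cardiomyocyte marker was called in either measure. Fibroblast markers summed to 24900 and 20010 FPKM of footprints in WT against 53210 and 68410 in KO (2.71 times). All 10 lay above WT in both KO libraries, and 0 were called. In RNA the fibroblast sum was 1.85 times the WT mean. There 5 of 10 lay above WT in both KO libraries, near the 44.2% of all genes, and 1 lay below (18.6% of all genes). Of the 10, 2 were called higher in RNA, against 4.2% of all genes. Mural cell markers, which go with Ednra and Agtr1a in vessel walls, summed to 5308 and 5459 FPKM of footprints in WT against 5207 and 4542 in KO (0.905 times), a sum that Acta2 dominates. Without Acta2, left out after seeing the data, it was 1943 and 1500 against 2485 and 2727 (1.51 times), and 7 of the 12 markers lay above WT in both KO libraries and 1 below. Tagln, which smooth muscle uses to bind actin, rose in footprints and RNA (adjusted p = 0.0407 and 0.0443), Mcam, an adhesion molecule, rose in RNA (0.0391), and Vtn, or vitronectin, fell in RNA (0.0494). Abcc9, the nearest profile to Agtr1a, is a gene of this list too. Its RNA was lower in both KO libraries (log2 difference -1.38, not called) and its footprints overlapped. In RNA 4 of the 12 mural markers lay above WT in both KO libraries and 4 below. Ryr2, a cardiomyocyte marker nearly as close to Agtr1a, had an RNA difference of -1.42, which was not called. Lymphocyte markers summed to between 38.0 and 68.3 FPKM of footprints, most of it from Ptprc, which all leukocytes carry, and 4 of 6 were at 0 in some library. No defining marker of these lists was at 0 in all libraries. The part of the cell make-up in the receptor values was not tested.

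**Figure D5:**
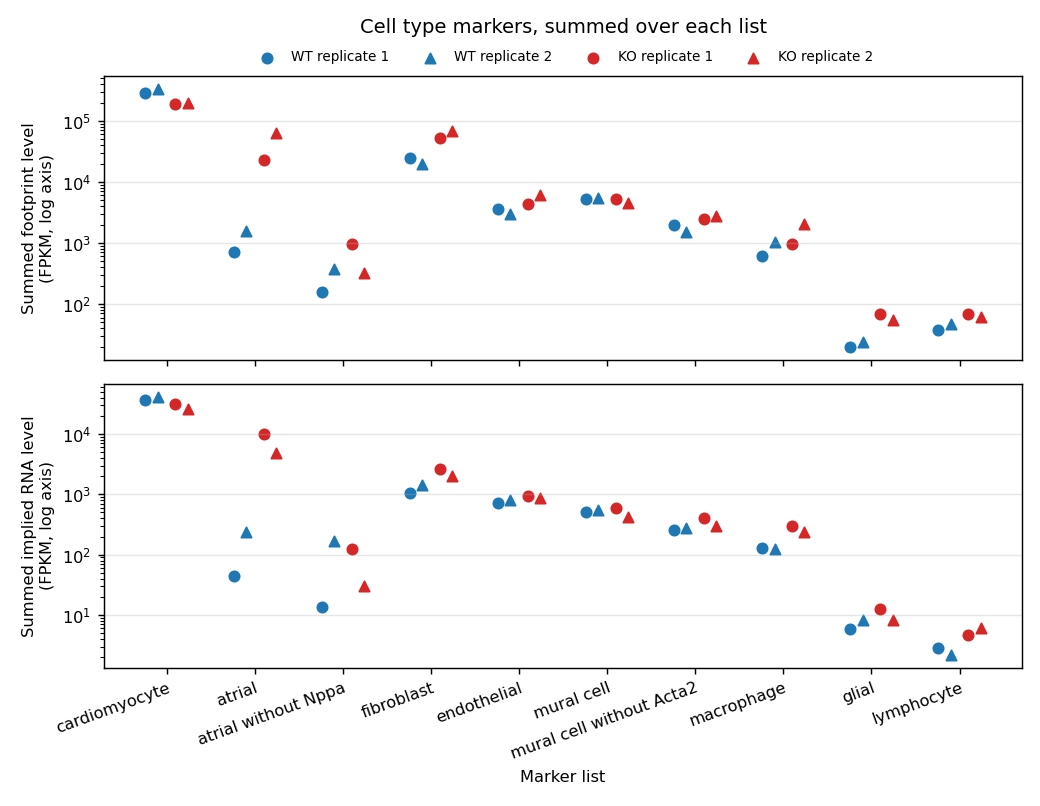
Footprint (top) and implied RNA (bottom) levels in FPKM summed over each list of cell type markers, on log axes, with 1 point per library, WT in blue, KO in red, circles for replicate 1 and triangles for replicate 2. Summed footprints of cardiomyocyte markers are 282800 and 328200 in WT against 189400 and 199200 in KO, and the atrial list without Nppa has RNA of 13.7 and 168 in WT against 126 and 30.0 in KO.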

How the data were processed

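The FPKM and the translation efficiency ratio of each gene and library were made by the authors and deposited as tables of 4 columns; the submitters' processing notes name Cufflinks 2.2.1, HTSeq 0.13.5, STAR 2.7.4a, Bowtie 1.3.1, FastQC 0.11.9 and cutadapt 3.7, with GRCm38 (mm10). Their order, settings and strand handling are not stated there, nor is how the RNA behind the ratio was measured. Dividing each deposited FPKM by the deposited ratio gave at most 6 significant digits in 59296 of 59296 cases (relative tolerance 1e-10), and the quotient was taken as the RNA level in FPKM. A ratio of 0 was taken as missing. Read totals are unknown, since low FPKM values showed no steps of whole reads.

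Genes with at least 1 FPKM in at least 2 libraries were tested as log2(FPKM + 1), which understates changes of low genes, and those with a ratio above 0 in all 4 libraries as log2 ratio and log2 RNA. limma 3.58.1 (lmFit, eBayes with trend, in R 4.3.3) was used, two-sided, without covariates, with Benjamini-Hochberg adjustment over all tested genes. It was also run on simulated data that gave every gene the same spread. That run cannot tell how the fit does where spreads differ between genes. Named are the members, Nat10 and, per list of related genes, each called gene and the 2 largest footprint differences at a mean of at least 5 FPKM in a group; other genes were named after their values were seen, and a few genes that the rule picks are not reported here. Members and lists were chosen with earlier results of these data known. Alternatives covered the pseudocount, floor, scaling, genes tested, variance trend, replicate block and each left-out library.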

Additional observations from a re-analysis of the deposited data

How the results depend on the processing

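No member was called for TE under any alternative run, and for footprints only Ace was, with the replicate number as a block (1 member higher, adjusted p = 0.0316, 118 genes called higher over all genes). In RNA, Adra1b and Ace kept their calls under every alternative but the one without the mean-variance trend (adjusted p = 0.0503 and 0.0684, so 0 members higher and 0 lower); every pathway call named was lost there too. The replicate block called 3 members lower in RNA, adding Chrm2 and Agtr1a (adjusted p = 0.0349 and 0.00693); the labels do not tie same-numbered libraries, whose deviations correlated at -0.056 for footprints, -0.0178 for TE and -0.219 for RNA, and it called 126 genes higher and 52 lower in TE and 1028 and 401 in RNA. A block with crossed numbers, added after seeing the data, called 2412 genes higher and 829 lower in RNA, with 3 members lower.

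Over all genes, footprint calls were 30 lower with median-ratio scaling, 171 higher and 53 lower without small RNA genes and unnamed models, 23 higher without the trend, 23 higher and 11 lower with a pseudocount of 0.1, and 7 higher and 1 lower with no filter, against 38 and 19. RNA calls were 327 higher and 309 lower with median-ratio scaling and 50 and 17 without the trend, against 526 and 192. TE gave 1 gene lower with a floor of 5 FPKM, without small RNA genes or without the trend. With a library left out, footprints gave 0 genes higher and 0 lower each time (1010 to 2497 genes at an unadjusted p under 0.05), TE 0 to 23 higher and 0 to 10 lower, and RNA 482 to 2632 higher and 222 to 1110 lower, with 1 to 3 members lower; Chrm2 was called lower in RNA without KO replicate 2 (adjusted p = 0.00411).

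Signs turned for values that were not called. Ednra read 0.27 in footprints without WT replicate 2 and 0.12 without KO replicate 1, 0.18 in RNA without KO replicate 1, and in TE -0.21 without WT replicate 1, -0.06 without KO replicate 1 and -0.092 with median-ratio scaling. Without KO replicate 2, Chrm2 read -0.14 in footprints and Ace -0.15 in TE. With each library left out in turn, Ednra ranged from -0.55 to 0.27 in footprints, -0.21 to 0.32 in TE and -0.58 to 0.18 in RNA, Chrm2 footprints from -0.14 to 0.95 and Ace TE from -0.15 to 1.72. The cause of these shifts was not tested. The weak members, Adra1a and Adrb1, rest on few fragments of unknown number.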
